A study of Mus musculus with 40 samples.

Results

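The circadian clock genes described here are Arntl, Clock, Npas2, Per1, Per2, Per3, Cry1, Nr1d1, Nr1d2 and Dbp. They were chosen by symbol: a probe was taken where the deposited fold change table names it by one of these symbols, which gave 10 of 29411 genes and 16 of 40628 probes. The choice used no level or difference between groups.

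RNA from subcutaneous stromal vascular cells of C57BL/6J mice, called infiltrating macrophages in the study's title, was measured on 1-colour Agilent arrays, 1 array per diet and time point. Of 40 arrays, 38 had labels that agreed on diet and time point and were used. The low-fat control diet (LFC, 10% of calories from fat) and the high-fat control diet (HFC, 60% of calories from fat with increased sucrose) had 11 arrays each, at days 1, 6, 10 and 14 and at weeks 0, 3, 6, 9, 12, 15 and 18. The botanical formulation Kal-1 was added to the high-fat diet at 5 µg (HF5, 6 arrays, weeks 3 to 18), 20 µg (HF20, 5 arrays, weeks 3 to 15) or 75 µg (HF75, 5 arrays, weeks 3 to 15). All mice were weaned at 3 to 4 weeks of age, lived under 12:12 h light and dark, and ate freely. The labels say that 5 animals of a group were killed every 3 weeks but not how many went onto an array, and they do not give the time of day of collection. The series description speaks of biological replicates for each diet, and the paper states that the experiment was done 3 times. The files hold 1 array for each labelled diet and time point, so what an array stands for is not known. Precision below is limited by how few arrays there were. Per the paper, week 0 falls on day 14 of the diet and the later weeks follow from there. Day 14 and week 0 are kept as 2 time points below, with the main counts also given for them as 1. The p-values measure only the spread between these samples.

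The clock is a feedback loop of transcription in nearly every cell, fat and its stroma included. ARNTL pairs with CLOCK or with NPAS2 and switches on genes through E-boxes, among them the Per and Cry genes, whose proteins gather and hold that pair back. A side loop runs through NR1D1 and NR1D2, which are switched on by the pair and repress Arntl, and the output factor DBP acts with its relatives TEF and HLF on D-boxes, opposed by NFIL3; RNA of Dbp and of the Nr1d genes peaks at another time of day than RNA of Arntl.

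A level is the log2 signal of a probe minus the 75th percentile of its array, so it describes a probe against itself across arrays and not against other probes. Where a gene has several probes, the probe of highest average level stands for it, and a signal counts as well above background where the scanner software marked it so. The median signal over background of an array ran from 1.53 to 55.4, with a median of 4.86. A pair of arrays stood apart from the rest. The LFC array of week 3 had 17.2% of probes well above background and a median rank correlation of 0.447 with the other arrays, and the LFC array of day 14 had 9104 outlier spots and a rank correlation of 0.471. The other 36 arrays had rank correlations of 0.832 to 0.941. Ranges of levels and correlations below leave those 2 arrays out unless 38 arrays are named, and the estimates of single members that include them are also given without them.

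The labelled cell type was checked against marker lists, each summed over its genes on a linear scale where an array's 75th percentile is 1. On the median array of each diet, 10 of 10 macrophage, 10 of 10 adipocyte, 7 of 7 fibroblast and 7 of 7 endothelial genes were well above background. So were 6 of 6 T cell and 6 of 6 skeletal muscle genes. This count therefore does not set the labelled cell type apart from the others. The LFC array of week 18 was different. Its fibroblast sum was 0.295, with Col1a2 highest and Col3a1, Pdgfra, Dcn, Lum and Dpt not well above background, against 335 on the HFC array and 340 on the HF5 array of that week. Its adipocyte sum was 1.38, with Adipoq, Lep, Plin1, Cidec and Retn not well above background, against 331 and 181, and its endothelial sum was 0.521 against 38.7 and 56.1. Its macrophage sum was 26.5 with 10 of 10 genes well above background, and its B cell sum was 34.6 with 5 of 5, so the stromal and adipocyte markers were near absent from this array while macrophage and B cell markers were present. The HF5 array of week 3 had an endothelial sum of 1.81, a T cell sum of 73.8 and a B cell sum of 43.6. In RNA from a mix of cells, fewer cells of a type and less RNA per cell cannot be told apart.

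**Figure D1:**
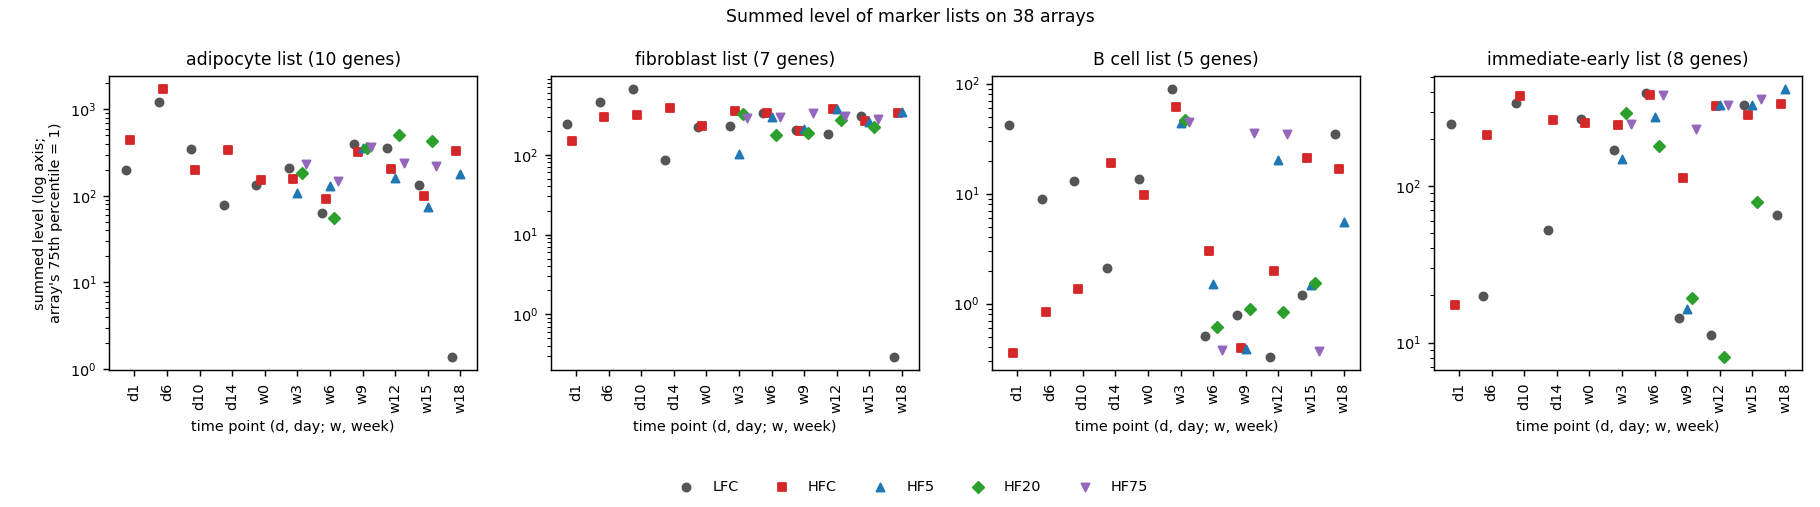
Summed level of the adipocyte, fibroblast, B cell and immediate-early marker lists (log axis, an array's 75th percentile is 1) on each of 38 arrays by time point, with diet as colour and shape. The LFC array of week 18 lies far below the others for the adipocyte list at 1.38 and the fibroblast list at 0.295.

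Among the activators, Arntl was well above background on 37 of 38 arrays. On the 36 arrays its level ran from −4.64 (HF20 week 12) to −0.29 (HF5 week 3) with a median of −1.56. Besides HF20 week 12, the arrays of LFC week 9 (−4.06), HF20 week 15 (−3.56) and HFC week 12 (−3.19) were low, so low values occurred under more than 1 diet. Clock, the usual partner of Arntl, ran from −1.90 (LFC week 18) to 1.19 (HF75 week 6) with a median of 0.27. Its standard deviation of 0.63 was larger than that of 28.4% of the 26902 probes that were well above background on most of those arrays, against 62.5% for Arntl. Clock has 3 probes, and over the 36 arrays the others correlated with the one used at r = 0.878 and r = 0.225, so they do not all read the same thing. Npas2, the alternative partner, was well above background on 14 of 38 arrays, too few for limma's main tests below; it enters 1 of the 10 counts of overlap, that of LFC and HF5. Its levels ran from −8.17 to −1.68 on the 36 arrays, and values at the low end have no order because they lie at the background.

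Of the repressors, Per1 ran from 0.35 (HFC day 1) to 3.04 (HF5 week 3) on the 36 arrays, with a median of 2.15. Per2 ran from −3.56 (LFC day 6, not well above background) to 0.58 (HFC day 1) with a median of −1.32, and its second probe correlated with the one used at only r = 0.0736. Cry1 was a dim probe, well above background on 32 of 38 arrays. On the 36 arrays Cry1 ran from −6.81 (LFC day 10, not well above background) to −2.90 (HF5 week 3), with a median of −4.67. On the LFC array of week 3, which stands apart, it was at 1.80. Per3 was well above background on 21 of 38 arrays and ran from −7.28 (HF75 week 9, not well above background) to −2.42 (HFC day 1) on the 36 arrays. By diet, Per3 was well above background on 5 of 11 LFC, 8 of 11 HFC, 3 of 6 HF5, 5 of 5 HF20 and 0 of 5 HF75 arrays, but the arrays of these diets also differed in brightness: over weeks 3 to 15 the 75th percentile of intensity was 796 to 1866 on HF20 and 469 to 781 on HF75 arrays, and 68.6% to 87.2% and 66.2% to 69.5% of probes were well above background. Of 40628 probes, 42 (0.103%) were like Per3 well above background on 5 of 5 HF20 and 0 of 5 HF75 arrays. The part of brightness in that pattern was not tested.

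In the side loop, Nr1d1 ran from −5.95 (LFC week 18, not well above background) to 1.11 (HFC day 6) with a median of 0.10 on the 36 arrays. Apart from LFC week 18 and HF5 week 3 (−3.40), no array of the 36 was below −1.11. These values are from 1 of 3 probes; the other 2 correlated with it at r = 0.607 and r = 0.285, and on LFC week 18 they were well above background, at −4.96 and −4.42 against medians of −3.86 and −4.75 over 34 arrays without LFC week 18 and HF5 week 3. Nr1d2, its paralogue, ran from −2.43 (LFC week 18) to 1.67 (HFC week 12) with a median of 0.91. The lowest array for the probes used was thus the same for both, the array with hardly any fibroblast or adipocyte marker signal. On HF5 week 3, where Nr1d1 was low, Nr1d2 stood at 1.49, near its top.

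Dbp, the output factor, was well above background on 37 of 38 arrays and saturated on 1. A saturated level is a lower bound, so the order of the highest Dbp levels is not fixed. On the 9 LFC arrays without the 2 that stand apart, its lowest, median and highest levels were −0.14 (week 18), 4.03 and 5.25 (week 9); the median of all 11 LFC arrays was 3.53. On the HFC arrays they were 2.67 (week 9), 4.07 and 5.31 (day 6). On the HF5 arrays they were 1.59 (week 3), 3.86 and 4.94 (week 9). At weeks 3, 6, 9, 12 and 15 Dbp stood at 3.33, 4.15, 5.42, 5.80 and 5.30 under HF20, and at 4.30, 4.33, 4.10, 3.20 and 3.76 under HF75. The ranges of all 5 diets overlapped; the arrays of HF20 from week 9 on were among the highest and LFC week 18 was the lowest.

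**Figure D2:**
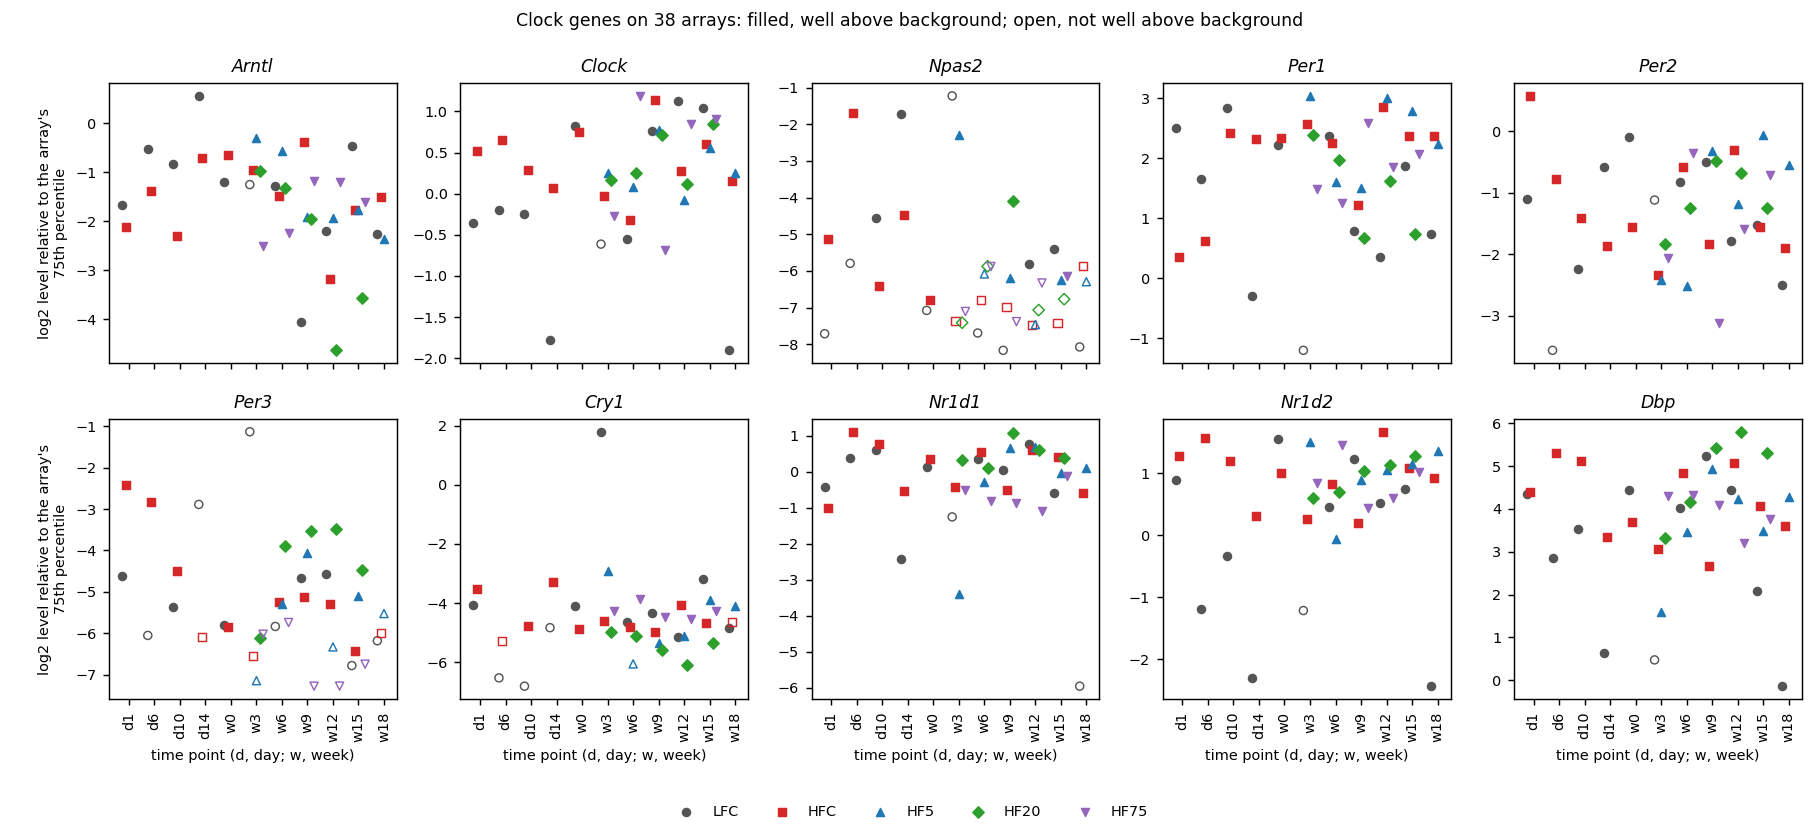
Level of each clock gene (log2, relative to the array's 75th percentile) on 38 arrays against time point, with diet as colour and shape; filled symbols are well above background and open symbols are not. Dbp ran from −0.14 on LFC week 18 to 5.80 on HF20 week 12, Arntl was lowest on HF20 week 12 at −4.64, and Per3 was not well above background on any HF75 array.

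HFC was compared with LFC to ask what the high-fat diet does, in limma with the time point as a block over 11 pairs of arrays. At an adjusted p under 0.05, limma called 0 of the 9 members tested, where it called 0 of 28442 probes (0%) in all; at an unadjusted p under 0.05 there were 2 members and 854 probes. The members' median log2 difference was 0.55, against 0.00475 for all probes. With arrays weighted by their quality these medians were 0.12 and 0.03. Marker lists moved in the same comparison: the median was 1.36 for the fibroblast list (7 of 7 higher), 1.35 for the immediate-early list (8 of 8 higher), 0.98 for the adipocyte list (9 of 10 higher) and 0.90 for the endothelial list (7 of 7 higher). Without the pairs of day 14 and week 3 these medians were 1.35, 1.12, 0.78 and 0.98. Their part in the members' differences was not tested. Dbp was higher in HFC by 1.21 (95% interval 0.12 to 2.29, limma's unadjusted p = 0.0319, adjusted p = 0.960), in 9 of 11 pairs. Nr1d2 was higher by 1.12 (0.25 to 2.0, unadjusted p = 0.0154, adjusted p = 0.960), also in 9 of 11 pairs. For both genes week 0 and week 9 were the pairs with the lower HFC array, with differences of −0.76 and −2.57 for Dbp.

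These HFC differences kept their direction when pairs were left out and were near 0 when arrays were weighted. Over 23 alternatives the unadjusted p was under 0.05 in 14 for Dbp and 21 for Nr1d2. These tallies hold repeats. For both genes, with 1 probe each, the mean of probes was the main fit again. Leaving out the week 9 arrays whose titles carry the letters WS was the same as leaving out week 9. Without the pairs of day 14 and week 3 the estimate was 0.88 for Dbp (unadjusted p = 0.144, adjusted p = 0.902 in limma) and 0.92 for Nr1d2 (unadjusted p = 0.0618, adjusted p = 0.902 in limma), with 0 of 9 members at an unadjusted p under 0.05 and a members' median of 0.53. With day 14 and week 0 as 1 time point, Dbp and Nr1d2 kept an unadjusted p under 0.05 and 0 members and 0 probes were called. Without week 18 it was 0.95 for Dbp and 0.90 for Nr1d2, and without week 9 it was 1.58 and 1.34. With arrays weighted by their quality, the difference was −0.09 for Dbp and 0.04 for Nr1d2, so the direction for Dbp changed with that setting, and quantile normalization gave 2.04 for Nr1d2. Over weeks 3 to 15 without the LFC array of week 3, the mean of Dbp was 3.95 ± 1.35 (SD, n = 4) under LFC and 3.95 ± 1.06 (SD, n = 5) under HFC. The pairs hybridized on a shared slide were day 6, week 0, week 3 and week 9, with differences for Dbp of 2.47, −0.76, 2.60 and −2.57, which do not share a sign; the week 3 pair holds an array that stands apart. Nr1d1 was higher by 0.82 (−0.19 to 1.83, unadjusted p = 0.103, adjusted p = 0.960 in limma), in 8 of 11 pairs, by 0.70 without day 14 and week 3 and by 0.37 without week 18, where it was not well above background on the LFC array. Averaging its 3 probes gave −0.01, so its direction depended on the probe.

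The HFC difference of weeks 3 to 18 was set against that of day 1 to week 0 to ask whether it changed with time on the diet. limma called 0 of 9 members and 0 of 28442 probes (0%), with 0 members and 1442 probes at an unadjusted p under 0.05; the members' median was −0.41 (−0.20 without day 14 and week 3), against −0.38 for all probes. With normexp background correction these medians were 0.49 and 0.67, so their direction depended on the background correction. The largest estimate was for Cry1, late minus early −2.17 (−4.64 to 0.31, adjusted p = 0.801 in limma); with normexp background correction it was 1.39. On at least 1 array of the pairs of days 6, 10 and 14 and week 18 Cry1 was not well above background, so these differences are partly against background and their direction is not counted. The LFC array of week 3, with Cry1 at 1.80, entered that estimate: it was −1.14 without week 3 (−2.60 to 0.33) and −0.98 without day 14 and week 3 (−2.51 to 0.56, adjusted p = 0.663 in limma). Without those 2 pairs the estimate for Per1 was 1.86 (unadjusted p = 0.0190, adjusted p = 0.561 in limma), larger than that for Cry1. For Per3 it was −1.57 (unadjusted p = 0.0401, adjusted p = 0.583 in limma). With those pairs the estimates for Per1 and Per3 were 1.63 and −1.52. On at least 1 array of the pairs of day 6 and weeks 6, 15 and 18 Per3 was not well above background. The Per3 estimate is thus partly against background and is not ranked. Normexp background correction gave 1.81 for Per3. Marker lists moved in the same comparison, with 0 genes called: the median was 4.05 for the T cell list (6 of 6 higher, 5 of 6 at an unadjusted p under 0.05), 3.48 for the B cell list (5 of 5 higher) and 2.12 for the fibroblast list (7 of 7 higher), and 5.50, 5.10 and 2.86 without those 2 pairs. The immediate-early list had a median of 1.44 (8 of 8 higher), the macrophage list 0.96 (9 of 10 higher) and the endothelial list 0.94 (7 of 7 higher). Without those 2 pairs these lists were at 2.21, 1.00 and 0.98. Their part in the members' estimates was not tested. With day 14 and week 0 as 1 time point, 0 members and 0 probes were called.

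HF5, HF20 and HF75 were each compared with the HFC arrays of the same weeks, to ask what Kal-1 adds to the high-fat diet. The HFC arrays are shared by these comparisons, so values are set side by side and an overlap between them is not read as a result. For HF5, limma called 0 of 9 members and 0 of 27999 probes (0%), with 0 members and 1299 probes at an unadjusted p under 0.05. The members' median log2 difference was 0.07, against −0.0044 for all probes, and their estimates lay between −0.38 (Nr1d1) and 0.24 (Per2). With normexp background correction the medians were −0.13 and −0.27. Nr1d1 was at 0.37 with array weights and Per2 at −0.08 with normexp background correction, so both changed direction. The widest 95% interval was that of Nr1d1, −1.55 to 0.79, so the 6 pairs left room for differences of that size in either direction. Settings moved some of these estimates: with normexp background correction Per3 went from 0.20 to −0.78 and Cry1 from 0.06 to −0.79, each with an unadjusted p under 0.05 (adjusted p = 0.160 and 0.171 in limma), and Dbp, at −0.22, ran from −0.72 without week 9 to 0.76 with array weights. Marker lists moved here too. The macrophage list had a median of −0.42 (8 of 10 lower, 4 of 10 at an unadjusted p under 0.05) and the fibroblast list −0.51 (7 of 7 lower). The T cell list had −0.59 (6 of 6 lower) and the immediate-early list −0.65 (8 of 8 lower). The erythroid list had −0.89 (3 of 3 tested lower), and the B cell, adipocyte and endothelial lists had −0.51, −0.44 and −0.37. Of the marker lists only skeletal muscle had a median above 0, at 0.12. Their part in the members' estimates was not tested.

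For HF20, limma called 0 of 9 members and 0 of 29361 probes (0%), while 4 members and 3267 probes (11.1%) had an unadjusted p under 0.05. The members' median was 0.14, against 0.05 for all probes. With normexp background correction these medians were −0.13 and −0.35. Per3 had the smallest unadjusted p of the members. At weeks 3, 6, 9, 12 and 15 it was at −6.12, −3.90, −3.52, −3.47 and −4.46 under HF20 and at −6.54, −5.23, −5.12, −5.29 and −6.43 under HFC. It was higher in 5 of 5 pairs, by 1.43 (0.75 to 2.11, unadjusted p = 0.00195, adjusted p = 0.436 in limma), although the ranges of the diets overlapped through the HF20 array of week 3. The HFC array of week 3 was not well above background. The estimate was −0.43 with normexp background correction, so the direction for this dim probe depended on the background correction. Per3 also went with the brightness of an array: its r with the percent of probes well above background was 0.469 over 36 arrays and 0.639 within time points, and with the median signal over background 0.313 and 0.645. The HF20 array of week 9 had the highest of these percentages of all arrays, 87.2%. The part of brightness in the Per3 values was not tested.

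The other 3 members with an unadjusted p under 0.05 were lower under HF20. Per1 was at 2.38, 1.96, 0.68, 1.62 and 0.73 under HF20 and at 2.56, 2.25, 1.22, 2.86 and 2.37 under HFC. It was lower in 5 of 5 pairs and fell by 0.78 (unadjusted p = 0.0339, adjusted p = 0.436 in limma). The differences were small at weeks 3 and 6, at −0.18 and −0.29, and larger at weeks 12 and 15, at −1.24 and −1.64. Cry1 was at −4.97, −5.12, −5.58, −6.09 and −5.34 under HF20 and at −4.59, −4.82, −4.98, −4.07 and −4.69 under HFC. It was lower in 5 of 5 pairs and fell by 0.79 (unadjusted p = 0.0411, adjusted p = 0.436 in limma), and by 0.48 without week 12. Its second probe fell by 0.26 (unadjusted p = 0.652, adjusted p = 0.833 in limma) and the mean of its probes by 0.53 (unadjusted p = 0.230), so the size depended on the probe. The ranges of Per1 and of Cry1 overlapped between the diets. Arntl was at −0.98, −1.33, −1.95, −4.64 and −3.56 under HF20 and at −0.95, −1.49, −0.38, −3.19 and −1.76 under HFC. It was lower in 4 of 5 pairs and fell by 0.94 (unadjusted p = 0.0448, adjusted p = 0.436 in limma). At weeks 3 and 6 the diets were within 0.17 of each other for Arntl, and the lower values came from weeks 9, 12 and 15. Over 15 alternatives the unadjusted p was under 0.05 in 9 for Per1, 8 for Cry1 and 8 for Arntl. These alternatives are not all distinct, so the tallies hold repeats. The slide as a random block gave the main fit again, as did the mean of probes for Per1 and Arntl, with 1 probe each. Leaving out the week 9 arrays whose titles carry the letters WS was the same as leaving out week 9. Without the time point block limma's unadjusted p was 0.0917, 0.0167 and 0.243 for them.

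Dbp was higher under HF20 by 0.86 (−0.32 to 2.03, unadjusted p = 0.127, adjusted p = 0.458 in limma), in 4 of 5 pairs, and by 0.38 without week 9. Marker lists moved on the same arrays. The immediate-early genes, which like Per1 respond fast to stimuli, had a median of −2.31 in this comparison (8 of 8 lower). Their sum was 19.2, 8.11 and 79.1 on the HF20 arrays of weeks 9, 12 and 15 and 113, 328 and 287 on the HFC arrays of those weeks. The T cell list had a median of −1.75 (5 of 6 lower), with sums over weeks 3 to 15 of 19.5, 1.61, 1.67, 0.602 and 1.56 under HF20 and 24, 9.63, 0.940, 3.24 and 21.8 under HFC. So the T cell sum was lower under HF20 at every week but week 9. The B cell list had a median of −1.28 (4 of 4 tested lower). The endothelial list had −0.69 (7 of 7 lower) and the macrophage list −0.48 (9 of 10 lower). The erythroid, fibroblast and skeletal muscle lists had −0.43, −0.32 and −0.11. The adipocyte list had a median of 1.69 (9 of 10 higher), with sums of 183, 55.1, 360, 500 and 434 under HF20 and 158, 92.6, 320, 202 and 99.8 under HFC, higher under HF20 at every week but week 6. The part of these lists in the HF20 values was not tested. No slide held both an HF20 and an HFC array of the same week.

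For HF75, limma called 0 of 8 members tested, where it called 266 of 28162 probes (0.945%). That number of probes was unstable: 5 without week 3, 10 without week 6, 41 without week 15, 116 without week 12, 228 without week 9, 0 without the time point block and 1321 with array weights. In the main setting 1 member and 4025 probes had an unadjusted p under 0.05. The members' median was −0.10, against −0.01 for all probes. With array weights these medians were 0.09 and −0.04, and with normexp background correction −0.25 and −0.22. Nr1d1 was at −0.51, −0.82, −0.87, −1.11 and −0.13 under HF75 and at −0.43, 0.54, −0.52, 0.60 and 0.41 under HFC. It was lower in 5 of 5 pairs and fell by 0.80 (−1.55 to −0.06, unadjusted p = 0.0376, adjusted p = 0.310 in limma). Over 15 alternatives its estimate lay between −0.99 and −0.52, with an unadjusted p under 0.05 in 9. Here too the slide as a random block repeated the main fit, and leaving out the WS arrays repeated the fit without week 9. The other Nr1d1 probes fell by 0.66 and 0.31, and the ranges of the diets overlapped. In this comparison the macrophage list had a median of −0.96 (9 of 10 lower, 5 of 10 at an unadjusted p under 0.05). The fibroblast list had a median of −0.83 (5 of 7 lower, 5 of 7 at an unadjusted p under 0.05), with Dpt called lower. The erythroid list had −1.45 (3 of 3 tested lower). Other lists went up: skeletal muscle had 0.76 (6 of 6 higher) and B cell 0.29 (5 of 5 higher). The part of these lists in the Nr1d1 values was not tested. No slide held both an HF75 and an HFC array of the same week, and at weeks 3, 6 and 9 the 2 were scanned on different days. The 75th percentile of intensity was 469 to 781 on HF75 and 756 to 1719 on HFC arrays. The part of slide, scan day and brightness in this comparison was not tested. Per3 was not tested, since it was well above background on 0 of 5 HF75 arrays and 4 of 5 HFC arrays of those weeks. Without week 3 it passed the filter and had an unadjusted p under 0.05 in limma but was not called. That difference is against HF75 signals at the background and is not read.

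**Figure D3:**
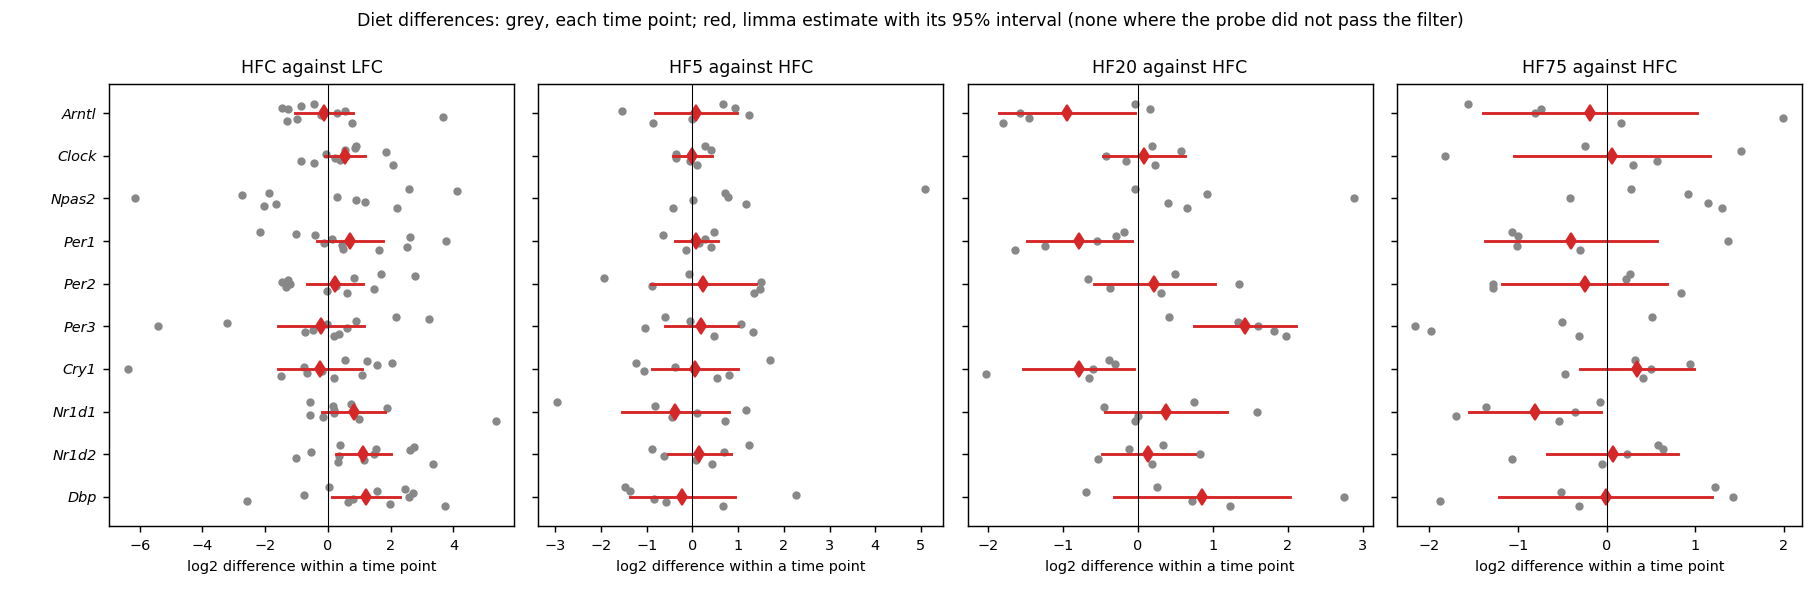
Difference in log2 level between diets within a time point for each clock gene, HFC against LFC and each dose of Kal-1 against HFC; grey points are time points and red marks are limma's estimate with its 95% interval, left out where the gene was not tested. Under HF20, Per3 was higher in 5 of 5 pairs and Per1 and Cry1 lower in 5 of 5, with an adjusted p of 0.436 each; with normexp background correction the direction for Per3 reversed.

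The order of the diets was read over weeks 3 to 15 without the LFC array of week 3. Npas2 was left out, since it was well above background on 0 of 5 HFC arrays and 1 of 5 arrays each of HF20 and HF75 there. Of 36 steps between neighbouring diets over the other 9 genes, 2 were larger than the larger standard deviation of the neighbours, both for Per3. One was from LFC at −5.46 ± 1.05 (SD, n = 4) up to HF20 at −4.29 ± 1.09 (SD, n = 5), the highest diet. Per3 was not well above background on the LFC arrays of weeks 6 and 15, so the size of this step is not read. The other set HF75 lowest, and since Per3 was not well above background on any HF75 array, the size of that step is not read. With normexp background correction no step was that large, and Per3 was highest under HFC and lowest under LFC, so its order depended on that setting. For Arntl, Clock, Per1, Per2, Cry1, Nr1d1, Nr1d2 and Dbp no neighbours in the order differed beyond their spread in either setting.

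Whether the arrays of a pair of diets overlapped was counted for all 10 pairs of diets over those weeks, a count chosen after the values were seen. In 9 of 10 pairs no member was free of overlap; the share of all probes free of overlap there was 1.07% for LFC and HFC, 1.31% for LFC and HF5, 0.551% for LFC and HF20 and 4.65% for LFC and HF75. It was 0.186% for HFC and HF5, 0.443% for HFC and HF20, 3.43% for HFC and HF75, 0.12% for HF5 and HF20 and 0.669% for HF5 and HF75. Between HF20 and HF75, 2 of 9 members did not overlap, against 4.56% of 28701 probes. Nr1d1 lay between 0.10 and 1.07 under HF20 and between −1.11 and −0.13 under HF75, and Cry1 lay between −6.09 and −4.97 under HF20 and between −4.54 and −3.88 under HF75. These are values of 1 probe per gene in the main setting, and the Cry1 probe is dim. With normexp background correction the mean of Cry1 was −3.32 ± 1.32 (SD, n = 5) under HF20 and −2.41 ± 0.79 (SD, n = 5) under HF75. For Nr1d1 these means were 0.52 ± 0.38 and −0.48 ± 0.33. HF20 arrays were also brighter, with a 75th percentile of intensity of 796 to 1866 against 469 to 781. The difference between HF20 and HF75 and the part of brightness in it were not tested.

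Variation between time points was tested over the 25 arrays of weeks 3 to 15, with diet as a factor. limma's moderated F called 0 of 9 members, where it called 5489 of 27956 probes (19.6%), but array weights called 3 (Clock, Per1 and Per3, adjusted p = 0.000166 to 0.00222) with 22344 probes, and normexp background correction called 3 (Cry1, Dbp and Per3, adjusted p = 0.00908 to 0.0298) with 16538 probes. In the main setting 1 member and 11083 probes had an unadjusted p under 0.05. That member was Dbp, whose time point means spanned 2.0 (unadjusted p = 0.0305, adjusted p = 0.0932 in limma). That depended on the arrays and settings used: without the LFC array of week 3 the span was 1.55 (unadjusted p = 0.133, adjusted p = 0.218 in limma), and 0 of 9 members had an unadjusted p under 0.05. With array weights the span was 0.82 (unadjusted p = 0.658 in limma), with the slide as a block the unadjusted p was 0.0549, and without LFC, HF5 or HF20 it was 0.196, 0.176 and 0.0975. In the other direction, Dbp was called with normexp background correction (span 2.19, adjusted p = 0.0298 in limma) and without HF75 (span 2.77, adjusted p = 0.0381 in limma). Marker lists were called in the same test: 9 of 10 adipocyte, 4 of 4 tested B cell, 4 of 10 macrophage, 4 of 8 immediate-early, 2 of 7 fibroblast and 2 of 6 T cell genes, or 9, 2, 4, 4, 2 and 0 without the LFC array of week 3. Their part in the members' values was not tested. Time point accounted for 35.4% of the variance of Dbp over the 25 arrays, diet for 18%, and the rest for 46.6%, against medians over all probes of 29.9%, 16.6% and 50.1%. Over the 20 arrays without LFC they were 26.4%, 21.0% and 52.6% for Dbp, against medians of 33.5%, 17.3% and 44.1%, and over the 20 arrays without week 3 they were 11.9%, 26.6% and 61.4%, against 24.6%, 25.2% and 43.8%. For Per1 time point accounted for 5.80% and diet for 34.2% over the 25 arrays and for 22.6% and 25.9% without LFC or 11% and 29.5% without week 3. For Per3 they accounted for 5.13% and 34.7%, and then for 20.1% and 48.7% or 9.64% and 65.2%, so these shares depended on the arrays used. The diet share of Per3 rests partly on HF75 levels that were not well above background, so its size is not read. Scan day mostly coincided with time point, so the 2 cannot be told apart in this test.

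A second probe of Clock passed the threshold for time, with a span of 1.98 (adjusted p = 0.0482 in limma), while the probe used for Clock and the remaining one did not (adjusted p = 0.298 and 0.759 in limma). The call was lost in 11 of 15 other settings, with an adjusted p of 0.0766 without the LFC array of week 3, so Clock is not counted as called. Over the 22 LFC and HFC arrays at 11 time points, limma called 0 of 9 members and 0 of 28393 probes (0%), with 0 members and 3629 probes at an unadjusted p under 0.05. The members called and the members at an unadjusted p under 0.05 were also 0 without the 2 LFC arrays that stand apart and with day 14 and week 0 as 1 time point.

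Other genes of the clock network were taken from a list of 24, of which 23 were tested. limma called 0 of 23 in each comparison between diets, where it called 0.945% of all probes for HF75 and 0% for the others. For time over weeks 3 to 15 it called 2 of 23, a smaller share than the 19.6% of all probes called there. These were Usp2, which encodes a protease that acts on clock proteins, with a span of 1.56 (adjusted p = 0.0353 in limma), and Hlf, a relative of Dbp, with a span of 1.72 (adjusted p = 0.0481 in limma). Both calls were lost when HFC, HF5, HF20 or HF75 was left out, and without the week 9 arrays whose titles carry the letters WS. They were also lost with raised dim signals and without a filter. Only Usp2 was called without LFC, with the filter on either group and with the slide as a random block. Only Hlf was called with quantile normalization. Without the LFC array of week 3 the adjusted p was 0.0346 and 0.0339, and with normexp background correction it was 0.0739 and 0.0516. Without that array Arntl2 was called too (span 2.21, adjusted p = 0.0356 in limma, against 0.102 with it), so 3 of 23 were, where 6311 of 28374 probes were. The number called was 9 of 23 with normexp, without Usp2 and Hlf, and 16 of 23 with array weights. Of 27956 probes, 16538 and 22344 were called in those settings. Without HF75, Cry2 and Prkaa1 were called, with 5783 of 28484 probes. In HFC against LFC, 2 of 23 (8.70%) had an unadjusted p under 0.05, against 3.00% of all probes: Btrc fell by 0.83 and Nfil3 rose by 1.12 (adjusted p = 0.960 each), and neither had one without day 14 and week 3. In HF5 against HFC, 1 of 23 (4.35%) did, against 4.64% of all probes: Prkaa1, which rose by 0.50 (adjusted p = 0.983). In HF20 against HFC, 4 of 23 (17.4%) did, against 11.1% of all probes: Nfil3 fell by 1.72 (unadjusted p = 0.0112), and Hlf, Prkaa1 and Tef rose by 1.00, 0.89 and 0.66, with an adjusted p of 0.436 each. In HF75 against HFC, 4 of 23 (17.4%) did, where 14.3% of all probes did. Bhlhe41 rose by 2.85 (adjusted p = 0.119), Arntl2, a paralogue of Arntl, rose by 1.64 (unadjusted p = 0.000637, adjusted p = 0.0600 in limma), and Btrc and Cry2 fell by 0.88 and 0.93 (adjusted p = 0.142 and 0.275). With normexp background correction Bhlhe41 rose by 0.98 and Arntl2 was at −0.14, while Arntl2 was called with quantile normalization and Arntl2, Bhlhe41 and Btrc with array weights. Of 28162 probes, 300 were called with quantile normalization and 1321 with array weights.

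Since the time of day is unknown, the members were also set against each other across arrays. The correlations below are descriptions over 36 arrays, which share time points, diets, slides and scan days. Dbp and Arntl moved in opposite directions, with r = −0.572 and Spearman's rho = −0.715. Within time points r was −0.676. Without the 2 arrays farthest from the median of Dbp, LFC week 18 and HF5 week 3, r was −0.784, and over those 34 arrays Arntl had the lowest r with Dbp of 19108 genes. Without the 2 arrays farthest from the median of Arntl, HF20 week 12 and LFC week 9, r was −0.494, and Dbp had the 13th lowest r with Arntl. Over all 36 arrays only 6 genes had a lower r with Arntl than Dbp had. Within single diets r was −0.288 over 9 LFC, −0.748 over 11 HFC and −0.811 over 6 HF5 arrays, weakest for LFC, which holds the week 18 array. HF20 and HF75 were not looked at alone. The array with the highest recorded Dbp, HF20 week 12 at 5.80, was also the array with the lowest Arntl at −4.64. Dbp was saturated on 1 array, so its order at the top is not fixed.

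By the same measure, the gene most like Dbp among 19108 was its relative Tef, with r = 0.890, followed by Nr1d1 (0.795), Zfp354a (0.777), Gm2268 (0.772) and Rasd1 (0.769). Tef ran from −2.17 (LFC week 18) to 2.92 (HF20 week 12). Without LFC week 18 and HF5 week 3, Tef remained at rank 1 with r = 0.783. Hlf was at rank 2 with 0.648 (rank 152 over all 36 arrays) and Nr1d2 at rank 5 with 0.613. Per3 was at rank 3 with 0.639, but it was well above background on 21 of 38 arrays, so its rank is not read. So on those 34 arrays Tef, Hlf and Nr1d2 were among the 5 genes most like Dbp, while the ranks of Zfp354a and Gm2268 were 55 and 115. Nfil3, the factor that opposes Dbp, ran the other way, with r = −0.443 with Dbp and 0.484 with Arntl.

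The remaining members followed Dbp to different degrees. The r with Dbp was 0.670 for Nr1d2 (rho = 0.597), 0.599 for Per3 (rho = 0.711) and 0.572 for Per2 (rho = 0.647). The second Per2 probe had an r of 0.192 with Dbp, so the link of Per2 depended on the probe. For Nr1d2 the r with Dbp was 0.450 without LFC week 18. It was 0.407 without the 2 arrays farthest from its own median (LFC day 6 and week 18) and −0.231 over the 6 HF5 arrays. The r with Dbp was −0.157 for Per1, −0.217 for Cry1 and 0.373 for Clock. Without LFC week 18 these were −0.394, −0.290 and 0.0254. The other Clock probes had an r of 0.373 and −0.20 with Dbp over 36 arrays. Per1 and Per3, which are paralogues, moved in opposite directions with r = −0.565, but r was −0.107 after normexp background correction. For Per3, a dim probe, the r with Dbp was −0.222 after normexp background correction, so its place beside Dbp depended on the background correction.

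**Figure D4:**
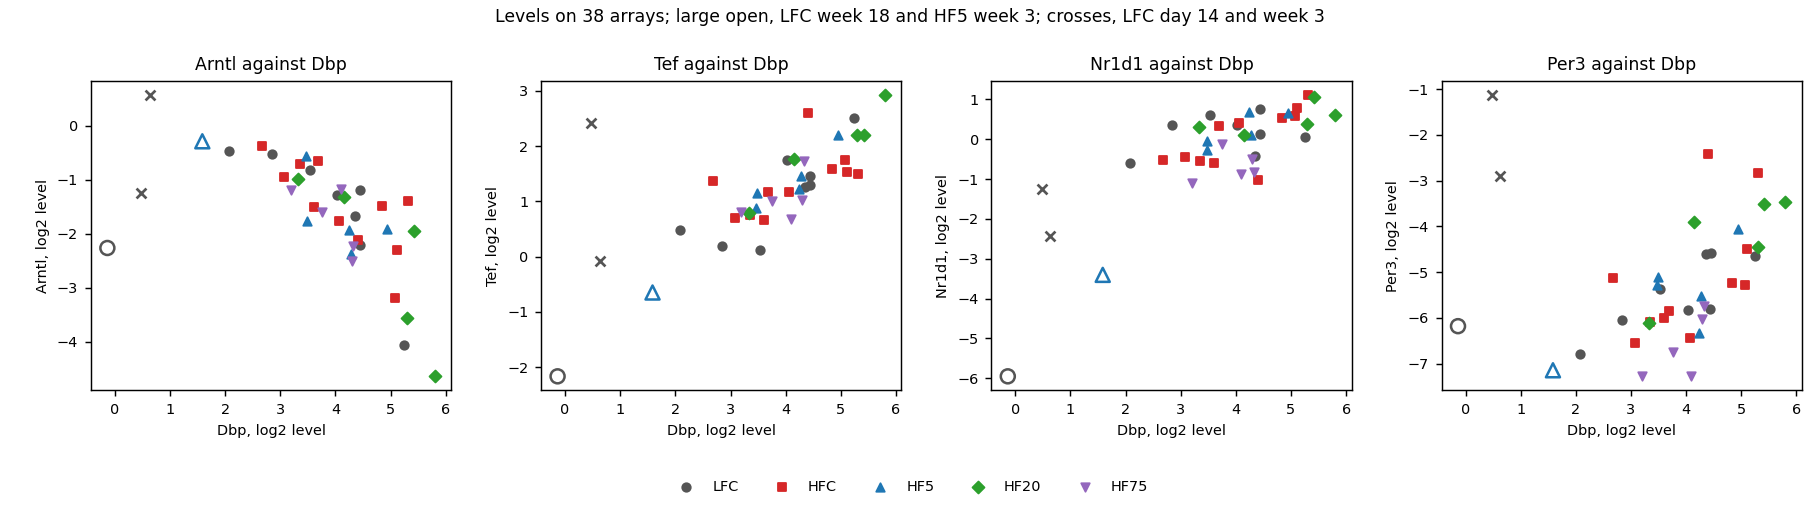
Level of Arntl, Tef, Nr1d1 and Per3 against the level of Dbp (log2, relative to the array's 75th percentile) on 38 arrays, with diet as colour and shape; large open symbols are LFC week 18 and HF5 week 3, and crosses are LFC day 14 and week 3. Over 36 arrays r with Dbp was −0.572 for Arntl, 0.890 for Tef, 0.795 for Nr1d1 and 0.599 for Per3, the last reversed to −0.222 by normexp background correction.

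The link between Dbp and Nr1d1 depended partly on single arrays and on the probe. It was r = 0.795 with rho = 0.625 over 36 arrays, and r = 0.538 without LFC week 18 and HF5 week 3. Over the 11 HFC arrays, which include neither, r was 0.719 with rho = 0.727. For the other Nr1d1 probes r with Dbp was 0.576 and 0.278 over 36 arrays. The genes most like Nr1d1 were Syde1 (0.939), Tenc1 (0.935), Lama4 (0.929), Mid2 (0.927) and Lzts2 (0.917), none of them a clock gene. The summed fibroblast list had r = 0.805 with Nr1d1 and the endothelial list 0.781, which dropped to 0.0533 and 0.0925 without those 2 arrays. The other Nr1d1 probes did not show this: over 36 arrays r was 0.225 and −0.0191 with the fibroblast list and 0.214 and 0.0158 with the endothelial list. So the low values of the probe used sat on arrays where stromal markers were low; a change in cells, a change in Nr1d1 within cells and a property of this probe cannot be told apart there. Dbp had r = 0.593 with the adipocyte list, 0.566 with the fibroblast list and 0.546 with the endothelial list over 36 arrays. Without the same 2 arrays, its r with the 9 lists lay between −0.387 (immediate-early) and 0.222 (adipocyte), and that of Nr1d1 between −0.246 (immediate-early) and 0.345 (macrophage), so for both genes the r with the stromal lists over 36 arrays rested on those 2 arrays. For Arntl they lay between −0.124 (skeletal muscle) and 0.435 (immediate-early) over 36 arrays and between −0.180 (skeletal muscle) and 0.318 (T cell) without its own 2 farthest arrays.

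The genes most like Arntl were A630005I04Rik (0.779), Stx1a (0.673), Rfx1 (0.626), 4931428F04Rik (0.619) and Fam167a (0.594). Without HF20 week 12 and LFC week 9, A630005I04Rik was still at rank 1 with r = 0.622. Per1 had r = 0.667 with the immediate-early list and 0.644 with the T cell list, and Per3 had −0.651 with the T cell list. For Per2 and Clock r with the T cell list was −0.578 and −0.483. The immediate-early sum was low on a set of arrays, though not only there. The set was the week 9 arrays of every diet but HF75, whose titles carry the letters WS. On it the sum was 14.4 to 113 with a median of 17.8. On the other 34 arrays, which include the 2 that stand apart, it was 8.11 to 417 with a median of 268. Low values outside that set were 8.11 on HF20 week 12, 11.2 on LFC week 12, 17.5 on HFC day 1 and 19.7 on LFC day 6. On the week 9 arrays titled WS, Per1 lay between 0.68 and 1.5. On HF20 week 12, LFC week 12, HFC day 1 and LFC day 6 it was at 1.62, 0.35, 0.35 and 1.65. The part of the immediate-early list or of cell content in the Clock, Per1, Per2 and Per3 values was not tested.

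Promoters of the members were searched because Dbp, Arntl, Per3 and the Nr1d genes moved together or apart across arrays in the main setting. The place of Per3 among them depended on the background correction, and that of Nr1d1 partly on the probe. RefSeq's promoter table (build GRCm38.p6) holds 13 promoters for 9 of 10 members; Per2 has none there. The 250 bases before each start were searched on both strands for the E-box CACGTG, the E-box variant CACGTT, the D-boxes TTATGTAA and TTACGTAA, the ROR elements TAGGTCA and TGGGTCA and the cAMP response element TGACGTCA. CACGTG was found in 6.02% of 32851 promoters and in those of Per1 and Cry1, 166 and 60 bases before the start. CACGTT was found in 3.85% and, on the other strand, in Cry1 and Nr1d1, 79 and 28 bases before the start. TTATGTAA was found in 0.819% of promoters and at 2 places in that of Per3, 205 and 158 bases before the start. The letters TTACGTAA (0.113%), TAGGTCA (2.23%), TGGGTCA (3.24%) and TGACGTCA (1.55%) were in no member's window. A match describes letters and is not evidence of a bound site. The promoters with a match are printed 5′ to 3′ on the gene's strand, with the motif in capitals (an other-strand CACGTT reads AACGTG): Per1 at chr11:69098699-69098948 on the plus strand, Cry1 at chr10:85185055-85185304, Per3 at chr4:151044666-151044915 and Nr1d1 at chr11:98775378-98775627, the last 3 on the minus strand.
Per1: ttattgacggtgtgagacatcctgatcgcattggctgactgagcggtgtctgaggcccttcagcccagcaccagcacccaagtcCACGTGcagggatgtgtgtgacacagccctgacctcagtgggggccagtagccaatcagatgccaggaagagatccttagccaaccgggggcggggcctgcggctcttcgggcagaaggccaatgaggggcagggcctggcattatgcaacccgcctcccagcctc
Cry1: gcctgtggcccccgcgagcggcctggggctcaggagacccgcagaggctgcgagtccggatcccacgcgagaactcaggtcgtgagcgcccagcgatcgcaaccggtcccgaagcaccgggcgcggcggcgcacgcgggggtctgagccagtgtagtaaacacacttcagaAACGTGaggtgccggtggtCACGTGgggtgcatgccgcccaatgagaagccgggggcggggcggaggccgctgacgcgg
Per3: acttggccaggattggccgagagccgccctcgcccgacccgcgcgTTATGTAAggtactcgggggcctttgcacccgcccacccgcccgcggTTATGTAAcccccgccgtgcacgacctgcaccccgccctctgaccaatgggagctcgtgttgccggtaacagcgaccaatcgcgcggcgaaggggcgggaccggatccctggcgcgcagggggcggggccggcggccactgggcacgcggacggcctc
Nr1d1: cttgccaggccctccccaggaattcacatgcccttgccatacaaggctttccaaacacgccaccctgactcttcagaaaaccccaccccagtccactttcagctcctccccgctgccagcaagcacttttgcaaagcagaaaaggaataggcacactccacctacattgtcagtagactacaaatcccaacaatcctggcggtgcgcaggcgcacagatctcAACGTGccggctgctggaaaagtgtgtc

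Several limits apply. There was 1 array per diet and time point, so a diet difference at a labelled time point has no replicate. Time of day and the number of animals on an array are not in the labels, and their part in the results was not tested. Npas2 and Per3 were dim, and several members' second probes disagreed with the one used. The LFC arrays of day 14, week 3 and week 18 moved several HFC estimates. No member passed the adjusted threshold in any comparison between diets, and an adjusted p above it does not show that levels were equal.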

How the data were processed

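The intensity values are gProcessedSignal, which, per the file headers, Feature Extraction 10.5.1.1 made by subtracting the background and spatial trends within each array without normalization between arrays; the labels name version 9.1. From the log2 fold change table that the authors deposited, only the gene symbols were used. Spots of a probe were averaged, and log2(gProcessedSignal) minus each array's 75th percentile was the level. A probe was tested if 50% or more of a comparison's arrays had it well above background, in limma 3.58.1 (R 4.3.3; lmFit and eBayes) with the time point as a block, or diet as a factor in the time tests, and p-values were adjusted by Benjamini-Hochberg over all probes tested, with a threshold of 0.05. Python 3.11.15, pandas 2.3.3, NumPy 2.4.6 and SciPy 1.17.1 did the rest. The steps were tested on simulated data.

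Pairing by time point was checked on deviations from the diet's mean: for HFC and LFC the median r was 0.337 for arrays of the same time point and −0.0573 for others, with 9 of 11 pairs over 0.1, and 6 of 6, 3 of 5 and 3 of 5 pairs were over 0.1 for HF5, HF20 and HF75 against HFC. The block comes from the labels' time points.

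The members and lists were chosen with earlier results of these data known. All 10 members were named; the 5 genes with the highest Pearson r over 36 arrays with Arntl, Dbp and Nr1d1 were named, from genes well above background on at least 50% of them, as was each clock network gene that was called. Naming the network genes with an unadjusted p under 0.05 between diets, and those set against Dbp, was chosen after their values were seen. Alternatives were normexp background correction (offset 50), quantile normalization, raised dim signals, other filters, array weights, the slide as a random block, no time point block, day 14 and week 0 as 1 time point, leaving out arrays, and the mean of a gene's probes. The labels of 2 week 18 arrays conflict, and these were not used.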

Additional observations from a re-analysis of the deposited data

Results flagged for a closer look

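Each clock gene was looked at in groups of 4 to 10 arrays, the diets at a time point or the time points of a diet, for 1 array far from the others relative to the group's range. Of 80 such groups, 5 (6.25%) had one, and chance alone gives about 1 in 20.

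On HF5 week 3, Nr1d1 was at −3.40 while the other HF5 arrays lay between −0.28 and 0.69, and Npas2 was at −2.29 while the others lay between −7.46 and −6.08; 3 of those 5 Npas2 signals (weeks 6, 12 and 18) were not well above background, so that gap is partly against background and its size is not read. On that array the endothelial list summed to 1.81 and the T cell list to 73.8. The Nr1d1 value is from 1 of 3 probes, and the other 2 were not well above background there. The part of those cells in either value was not tested.

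At week 12, Nr1d1 on the HF75 array was at −1.11 while the other diets lay between 0.60 and 0.76. At week 9, Clock on the HF75 array was at −0.69 while the other diets lay between 0.71 and 1.14; the HF75 array of that week is the one whose title lacks the letters WS. At week 3, Per3 on the LFC array was at −1.13 while the other diets lay between −7.15 and −6.02, but that signal was not well above background and the array is the one with 17.2% of probes well above background.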

How the results depend on the processing

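The count of members past the threshold was the same in 126 of 129 combinations of comparison and alternative, and the count of probes was within 1.5 times in 107 of 129. Some of these combinations repeat another fit, so they are not 129 separate checks. All 50 mean levels per diet moved by less than 1 SD under quantile normalization. The cause of the changes below was not tested.

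For time over weeks 3 to 15, 3 members passed with normexp background correction (Cry1, Dbp, Per3) and 3 with array weights (Clock, Per1, Per3); leaving out a diet in turn gave 0 to 1, the 1 being Dbp without HF75 (adjusted p = 0.0381 in limma). The probes past the threshold there were 5489, with 16538 under normexp, 22344 under array weights, 2967 without the week 9 arrays titled WS, and 1002 (without HF5) to 5783 when a diet was left out.

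For HF75 against HFC the 266 probes became 1321 with array weights and 0 without the time point block that pairs the arrays, and leaving out a week gave 5 (without week 3) to 228. Dropping the block changed no other call, and taking day 14 and week 0 as 1 time point, chosen after seeing the data, changed none. For time over LFC and HFC arrays the 0 probes became 1 with normexp, 10 with quantile normalization, 2 with raised dim signals, 11 without a filter, 11 with the filter on either group and 2 with array weights, and leaving out a time point gave 0 to 13 (without day 1).

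Of 119 recomputed correlations, chosen after seeing the data, 111 moved by less than 0.2. Normexp reversed the r of Per3 with Dbp to −0.22 and of Per3 with Arntl to 0.51. Dbp and Arntl stayed negative in 17 of 17 alternatives, between −0.789 and −0.488.

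The median of all probes shifted with the scaling: late against early from −0.38 to 0.67 with normexp and 0.02 with quantile normalization, HFC against LFC from 0.00 to 0.19 with quantile, and with normexp to −0.27, −0.35 and −0.22 for HF5, HF20 and HF75.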

Other observations

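The labels of 2 arrays of week 18 conflict on the diet (HF20 against HF75), and these samples are in no group. On 1 of them Dbp was at 0.99, Nr1d1 at −3.43, Nr1d2 at −1.29 and Clock at −2.41, and Arntl had no value; that array had 21710 outlier spots, more than any array used, and 50% of probes well above background, so its levels are not read further. On the other, Dbp was at 4.18, Nr1d1 at −0.64, Nr1d2 at 1.29, Clock at 0.08 and Arntl at −3.18.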
